A study of Mus musculus with 16 samples.

Results

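A set of 8 genes of glycogen synthesis and breakdown was followed in the livers of mice that lack Cpt1a in the liver and of their controls. The genes were fixed by name as Gys2, Gbe1, Ugp2, Pygl, Phka2, Ppp1r3b, Ppp1r3c and Ppp1r3g, and all 8 were found among the 25803 genes of the joined tables. The data are 16 bulk RNA sequencing libraries of liver from male mice after 12 weeks on a high-fat diet. Every group had the diet and a 16 h fast. The fasted groups, labelled Control and CPT1a LKO, were sampled at the end of the fast, and the refed groups, with the same 2 genotypes, after 6 h of refeeding. Each of the 4 groups has 4 libraries. LKO stands for liver knockout of Cpt1a, an enzyme of the outer mitochondrial membrane that starts the entry of long-chain fatty acids into mitochondria. The promoter that drives the deletion, the strain and the age of the mice are not given in the sources used here, and the controls are called WT in the design text. Nothing in the labels says whether libraries of a group came from separate cages or preparations, so p-values measure the spread between these libraries.

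Glycogen is the liver's store of glucose, built after a meal and broken down in a fast. UDP-glucose is made by UGP2, joined into chains by the liver isoform of glycogen synthase (GYS2) and branched by GBE1. Glycogen phosphorylase of liver (PYGL) releases glucose units as phosphates, and it is switched on by phosphorylase kinase, whose liver alpha subunit is PHKA2. Protein phosphatase 1 (PP1) reverses both phosphorylations, and the PPP1R3 subunits, among them PPP1R3B, PPP1R3C and PPP1R3G, hold it on the glycogen particle. Insulin, glucagon and glucose 6-phosphate act on these enzymes mostly by phosphorylation and allostery, so transcript levels are only one layer of their control.

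Promoter sequence was taken from RefSeq (GRCm38.p6), which had entries for 6 of the 8 genes, and none for Gys2 and Ppp1r3b. The 250 bases before the transcription start are shown for 3 members: Gbe1 and Pygl, which both fell in fasted LKO liver, and Ppp1r3g, which was high in only some of those livers. They lie at chr16:70313699-70313948 (plus strand), chr12:70227684-70227933 (minus strand) and chr13:35967656-35967905 (plus strand). Each is written 5′ to 3′ on the gene's strand, and capitals mark exact matches, on either strand, to the GC box (GGGCGG) or the CCAAT box (CCAAT).
Gbe1: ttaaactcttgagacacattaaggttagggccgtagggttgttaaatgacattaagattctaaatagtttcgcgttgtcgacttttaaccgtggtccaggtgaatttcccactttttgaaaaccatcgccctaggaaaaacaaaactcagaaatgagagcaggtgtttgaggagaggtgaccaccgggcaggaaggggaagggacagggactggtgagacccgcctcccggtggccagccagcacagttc
Pygl: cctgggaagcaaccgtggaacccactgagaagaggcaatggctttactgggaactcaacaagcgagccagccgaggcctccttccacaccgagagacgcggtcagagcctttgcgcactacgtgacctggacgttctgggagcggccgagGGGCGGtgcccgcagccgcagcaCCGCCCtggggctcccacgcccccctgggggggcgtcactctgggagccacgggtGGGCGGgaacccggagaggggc
Ppp1r3g: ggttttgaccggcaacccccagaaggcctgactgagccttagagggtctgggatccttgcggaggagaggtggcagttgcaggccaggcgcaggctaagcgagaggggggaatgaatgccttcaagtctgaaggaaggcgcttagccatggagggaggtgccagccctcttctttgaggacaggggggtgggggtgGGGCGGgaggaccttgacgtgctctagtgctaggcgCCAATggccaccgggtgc
Pygl held 3 GC boxes, Ppp1r3g held 1 GC box and 1 CCAAT box, and Gbe1 held neither. Of 32851 RefSeq promoter windows of the same length, 32.7% held a GC box and 33.8% a CCAAT box. The windows of Gbe1, Pygl and Ppp1r3g had 48.8%, 69.2% and 63.2% G and C. The letters of a FOXO site (GTAAACA), a sterol element (TCACNCCAC), a cyclic AMP element (TGACGTCA), a DR1 element, a DR4 element and a TATA box (TATAAA) were in none of the 7 member windows, and they are in 3.17%, 1.05%, 1.55%, 0.0335%, 0.0152% and 12.4% of all windows. An E-box (CACGTG, in 6.02% of all windows) was found in 1 window, that of Ppp1r3c, from 104 to 99 bases before the start. These motifs do not overlap one another in letters within the printed windows, and a match describes the sequence alone.

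Libraries held 14.7 to 24.6 M (mega) counts. Cpt1a stood at 378 to 556 CPM (counts over the TMM-scaled library total, per mega-count) in fasted control and 86.1 to 126 CPM in fasted LKO, and at 319 to 620 against 39.9 to 75.2 CPM in the refed groups, so the genotype labels matched the targeted gene in 16 of 16 libraries. Hepatocyte markers (8 of 8 found, among them Alb and Ttr) summed to 73973 to 82134 CPM in fasted control and 60823 to 69714 CPM in fasted LKO, which do not overlap. Of the 8, 4 were lower in fasted LKO by edgeR, as were 6.48% of all genes, with a list median of −0.51 on the log2 scale. Without S44 and S46, 0 of the 8 were called and the median was −0.37. Single libraries also ended calls: Asgr1 without S40, S43, S44, S46 or S47, Serpina1c without S40, S41, S42, S46, S47, S52, S53 or S55, and Ttr without S44 or S46. In the refed state their sums, 71047 to 92851 CPM in control and 63001 to 77433 CPM in LKO, overlapped, and 0 of 8 passed the test. Apoa1 went against the list's median, with higher means in LKO: 14275 against 11046 CPM fasted and 13233 against 8936 CPM refed. Neither difference was called (edgeR adjusted p = 0.149 and 0.0603). The fasted one was called by edgeR without S47 (0.0469). The refed one was called with DESeq2 (0.0123) and, by edgeR, without S47 (0.0355) or without both S44 and S46 (0.0382). Adipocyte markers, of which 1 of 5 could be tested, summed to 9.81 to 58.1 CPM in fasted control and 0.45 to 9.63 CPM in fasted LKO. The fasted LKO libraries had less Cfd (adjusted p = 0.0182 by edgeR), but this was no longer called without S44 (adjusted p = 0.0595), without S46 (0.0513) and without both (0.187). Of the markers of stellate cells or fibroblasts, endothelial cells, macrophages, cholangiocytes, lymphocytes and red blood cells, at most 1 of a list was called in either genotype comparison. Skeletal muscle markers, which would come with the muscle isoforms of these enzymes, summed to at most 1.90 CPM in any library. In bulk tissue, fewer cells of a type and less RNA per cell cannot be told apart, and the part of these markers in the results below was not tested. The fasted LKO libraries S44 and S46 stood apart from S45 and S47 in several members, and results are given with and without them.

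After the fast, 5 of the 8 genes differed between the genotypes. Gbe1, Pygl and Ppp1r3b fell in LKO, and Gys2 and Ppp1r3g rose. A gene was called by edgeR's quasi-likelihood test at a Benjamini-Hochberg adjusted p under 0.05 over all 14488 genes tested (the edgeR adjusted p), which 12.2% of genes passed in this comparison, 5.75% higher and 6.48% lower. The members' median log2 fold change was −0.38, against 0.02 over all genes, and their median absolute value was 0.68 against 0.21. The members were chosen with earlier results of these data known, so their count and medians describe the list and do not test it. Without S44 and S46, a setting chosen after the data were seen, 0 of 8 members and 391 genes in all were called, against 1772 genes with them. The members' median log2 fold change was −0.17 in that setting. All 8 members passed the filter on low counts, each through libraries of more than 1 group.

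In the refed state 1 of 8 members was called, Pygl, which was lower in LKO, where 3.63% of all genes were called, 2.28% higher and 1.35% lower. The members' median log2 fold change was −0.47 (all genes −0.01). Refeeding raised Gbe1 and Ppp1r3b in both genotypes and lowered Ppp1r3g in LKO liver. That gives 2 of 8 members called in control, against 15.4% of all genes (7.79% higher, 7.65% lower), and 3 of 8 in LKO, against 18.1% (9.28% higher, 8.78% lower). Without S44 and S46, 2 of 8 members and 1606 genes in all were called on refeeding of LKO. Those members were Ppp1r3b and Gys2, both higher, while Gbe1 and Ppp1r3g were no longer called. How far the genotype effect differed between the 2 states was called for 0 of 8 members and for 0.538% of all genes by edgeR (45 higher and 33 lower, but 43 higher and 65 lower with upper quartile scaling). At an unadjusted p under 0.05 it held for 2 members, Ppp1r3b and Ppp1r3g, and DESeq2 and limma-voom called 0 of 8 too. Comparisons that share a group share its libraries, so they are not independent of each other. The dot plot of the 4 comparisons sets these values side by side.

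**Figure D1:**
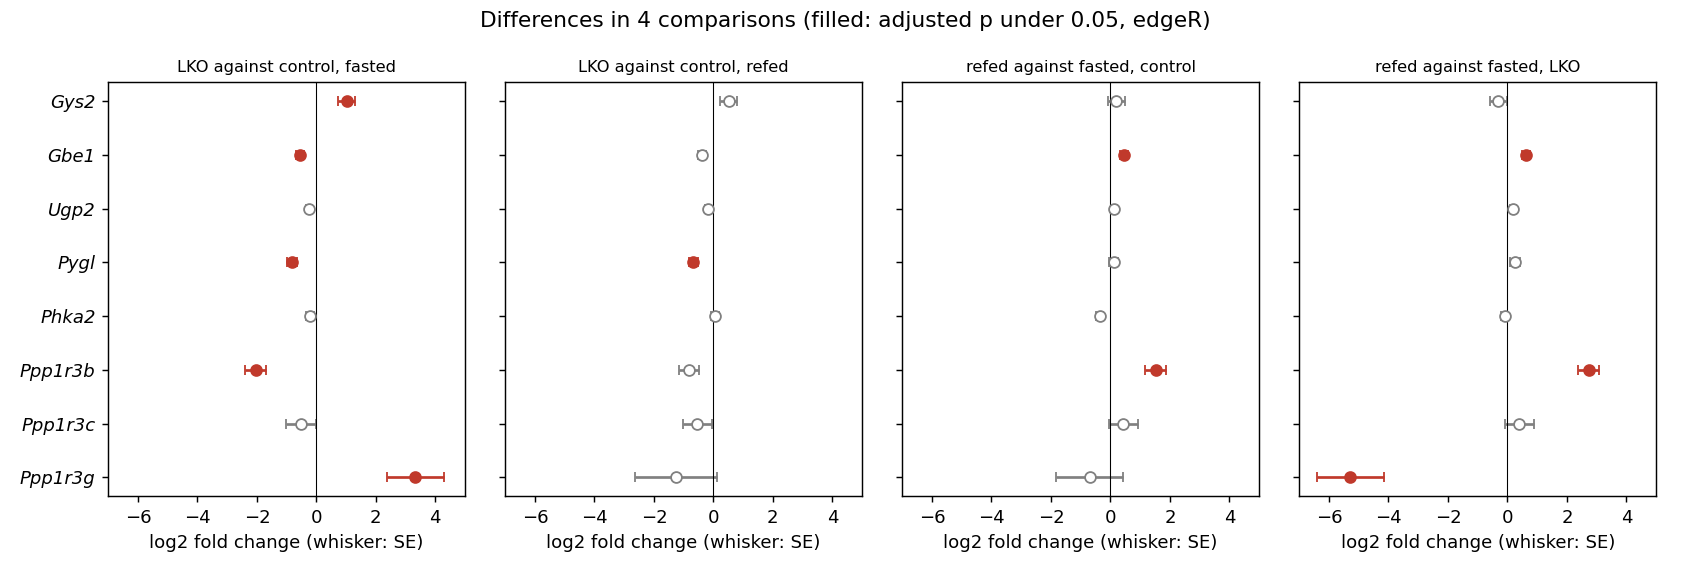
Log2 fold change (horizontal axis) of the 8 genes (vertical axis) in 4 comparisons, one a panel, with the standard error as whiskers and filled points for an edgeR adjusted p under 0.05. Ppp1r3b shows 3 filled points, the largest at 2.73 in LKO liver on refeeding, and Ppp1r3g has the widest whiskers.

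Gys2 (ENSMUSG00000030244, chromosome 6 from 142368339 to 142418835 on the minus strand; coordinates come from the deposited tables, and the submitters' processing notes name mm39) encodes the liver glycogen synthase. Fasted control livers (S40 to S43) held 151, 153, 146 and 128 CPM, and fasted LKO livers (S44 to S47) held 336, 167, 529 and 140.1 CPM. It was thus high in S44 and S46 alone, while S45 and S47 lay near or within the control range, and the groups overlapped. The group means were 144.5 ± 11.4 and 293 ± 180 CPM (SD, n = 4), a log2 fold change of 1.02 (SE 0.30, edgeR adjusted p = 0.0326). This call did not outlast the loss of most single libraries: the adjusted p was 0.133 without S46, 0.0871 without S44, and 0.0674, 0.0625, 0.0721 and 0.0821 without S40, S41, S42 and S43. It was 0.106 with only the 2 groups fitted and 0.0754 with limma-voom, and without both S44 and S46 the log2 fold change was 0.09 (adjusted p = 0.816). Refed control livers (S48 to S51) held 162, 139, 177 and 183 CPM, and refed LKO livers (S52 to S55) held 224, 296, 199 and 228 CPM. Every refed LKO library therefore lay above every refed control library. The 2 refed groups did not overlap, in either direction, for 11.7% of all genes. The difference of 0.52 (SE 0.29) was not called in the fit of all 16 libraries (edgeR adjusted p = 0.371). Without S44 and S46 the estimate was again 0.52 with an adjusted p of 0.0271, and with only the 2 refed groups in the fit it was 0.52 with an adjusted p of 0.0657, which is not called. The authors' deposited table gives 0.52 with an adjusted p of 0.00767. Refeeding itself gave 0.20 (SE 0.29) in control and −0.31 (SE 0.29) in LKO, neither called, and the LKO value turned to 0.63 (adjusted p = 0.0195) without S44 and S46.

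**Figure D2:**
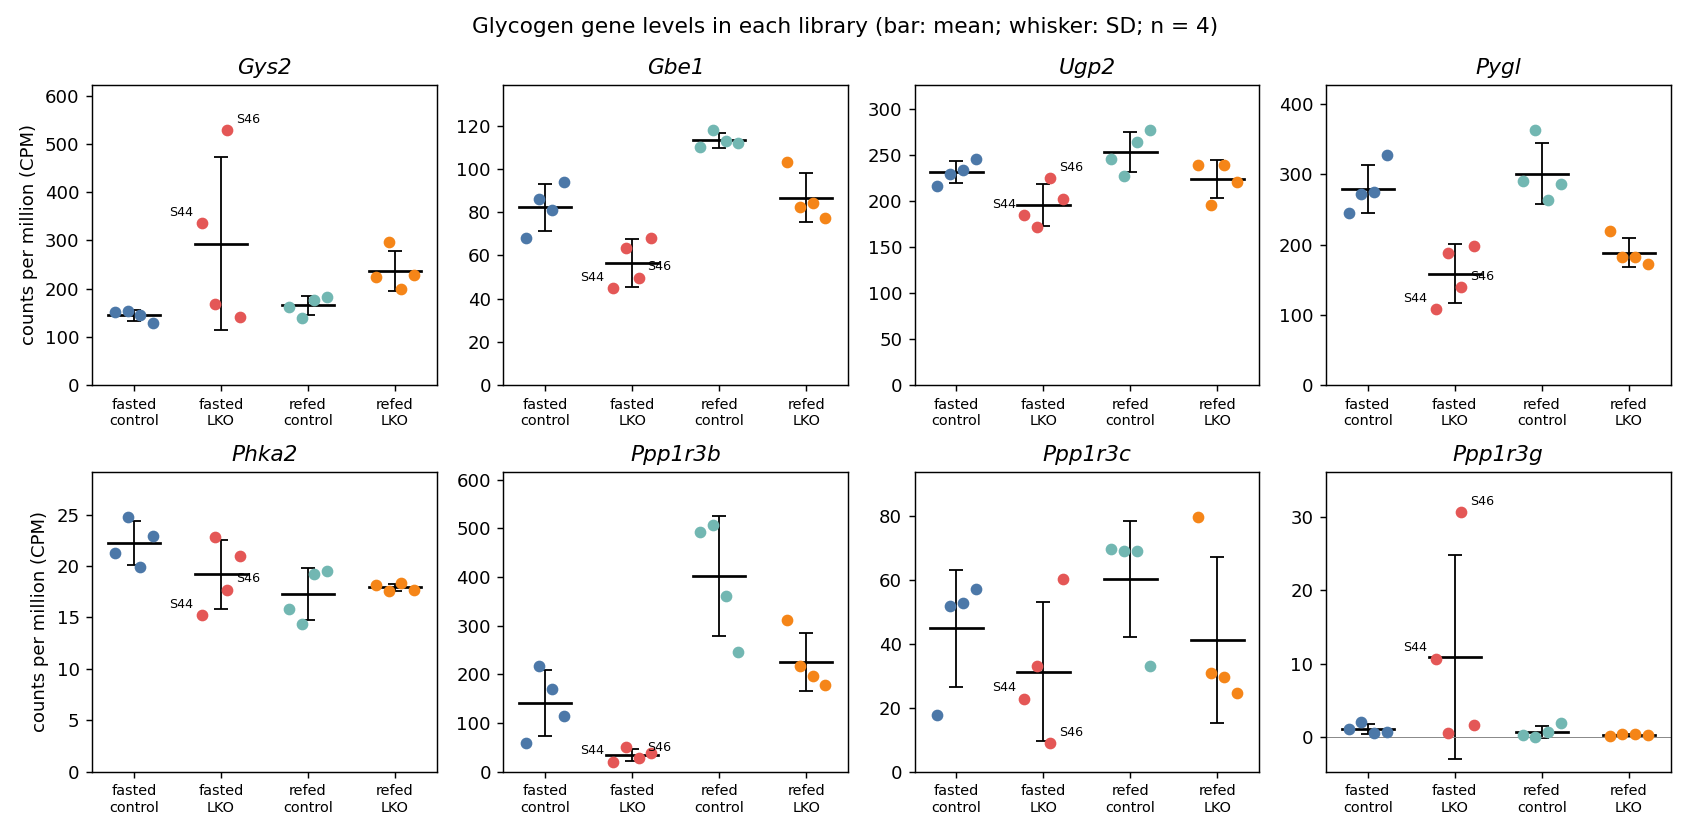
Level of each of the 8 genes in CPM (vertical axis, from 0 except for Ppp1r3g, whose whiskers reach below 0) by group, with 1 point per library, the mean as a bar and the SD as whiskers. S44 and S46 are named: they hold the highest fasted LKO values of Gys2 and Ppp1r3g and the lowest of Pygl, Gbe1 and Ppp1r3b.

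Gbe1 (ENSMUSG00000022707, chromosome 16 from 70110837 to 70366604, plus strand), the branching enzyme, was lower in fasted LKO and higher after refeeding. Fasted control livers held 67.9, 86.3, 81.0 and 93.8 CPM and fasted LKO livers 44.7, 63.4, 49.7 and 68.1 CPM. Only the highest LKO library, S47, reached the lowest control library. With means of 82.2 ± 10.9 and 56.5 ± 11.05 CPM (SD, n = 4), Gbe1 fell by 0.54 on the log2 scale (SE 0.13, edgeR adjusted p = 0.0130), a call that outlasted the loss of any single fasted library (8 of 8) and was lost without both S44 and S46 (−0.32, adjusted p = 0.1996). In the refed state the control libraries were tightly grouped at 110.1, 118, 113 and 112 CPM, all above the LKO libraries at 103, 82.3, 84.0 and 77.3 CPM. The refed groups did not overlap, as for 11.7% of all genes in either direction. The refed genotype difference of −0.38 (SE 0.13) did not pass (edgeR adjusted p = 0.111). It was called without S44 and S46 (−0.38, adjusted p = 0.0461) and not with only the 2 refed groups in the fit (0.0589), and the authors' deposited table has an adjusted p of 0.0113. Refeeding raised Gbe1 in LKO (0.62, SE 0.13, edgeR adjusted p = 0.00372) and in control (0.46, SE 0.13, adjusted p = 0.0244). The call in control was lost without S40 (0.0898), S42 (0.0539), S49 (0.0546) or S50 (0.0558), and the call in LKO without both S44 and S46 (0.40, adjusted p = 0.0615).

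Ugp2 (ENSMUSG00000001891, chromosome 11 from 21271138 to 21321201, minus strand), which makes the UDP-glucose that the synthase uses, showed the smallest differences of the synthesis enzymes. The fasted control livers ran from 217 to 246 CPM and the fasted LKO livers from 172 to 225 CPM. After refeeding the ranges were 228 to 278 CPM (control) and 196 to 240.1 CPM (LKO). The groups overlapped in each of the 4 comparisons. LKO against control gave −0.24 (SE 0.10, edgeR adjusted p = 0.117) when fasted and −0.18 (SE 0.10, adjusted p = 0.342) when refed, and refeeding gave 0.13 and 0.19 (adjusted p = 0.386 and 0.186).

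Pygl (ENSMUSG00000021069, chromosome 12 from 70237585 to 70278262, minus strand), the liver glycogen phosphorylase and the enzyme that yields glucose 1-phosphate from stored chains, was the 1 member called in both states. The fasted control libraries held 245, 272, 275 and 327 CPM and the fasted LKO libraries 108, 188, 139.6 and 198 CPM. After refeeding the values were 290.3, 364, 264 and 286 CPM in control and 219, 182, 182 and 172 CPM in LKO. In each state all 4 LKO libraries lay below all 4 control libraries. The genotype groups did not overlap, in either direction, for 16.9% of all genes fasted and 11.7% refed. The means went from 280 ± 34.3 to 158 ± 42.1 CPM fasted and from 301 ± 43.4 to 189 ± 20.7 CPM refed (SD, n = 4). On the log2 scale Pygl fell by 0.82 (SE 0.16, edgeR adjusted p = 0.00410) and by 0.67 (SE 0.16, adjusted p = 0.0322). The 2 differences were close in size, and their difference was 0.15 (SE 0.23, adjusted p = 0.786). The fasted call outlasted the loss of any single library but not of both S44 and S46 (−0.54, adjusted p = 0.0599). The refed call was lost without S48 (0.0720), S49 (0.0801), S53 (0.0836), S54 (0.0789) or S55 (0.0960), with estimates of −0.69 to −0.57 in those fits. It held with only the 2 refed groups in the fit (edgeR adjusted p = 0.0185) and without S44 and S46 (0.00503). The authors' deposited table has an adjusted p of 2.6e-05 for it. Refeeding gave 0.11 (SE 0.16) in control and 0.25 (SE 0.16) in LKO, neither called (edgeR adjusted p = 0.706 and 0.311).

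Phka2 (ENSMUSG00000031295, chromosome X from 159285162 to 159381874, plus strand), the liver alpha subunit of phosphorylase kinase, had the smallest genotype differences of the 8 genes. It ran from 19.9 to 24.8 CPM in fasted control livers and from 15.2 to 22.8 CPM in fasted LKO livers. Refed ranges were 14.4 to 19.5 CPM (control) and 17.5 to 18.4 CPM (LKO). LKO against control gave −0.21 (SE 0.12) fasted and 0.05 (SE 0.13) refed. On refeeding of control mice every refed library lay below every fasted one. These groups did not overlap, in either direction, for 20.4% of all genes. The difference of −0.36 (SE 0.12) missed the threshold (edgeR adjusted p = 0.0572). It passed with DESeq2 (0.0400), upper quartile scaling (0.0472), among genes of at least 5 CPM (0.0389) and without both S44 and S46 (0.0286). It also passed without S44 (0.0361), S45 (0.0416) or S51 (0.0386) alone, but not with only the 2 groups in the fit (0.0691).

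Ppp1r3b (ENSMUSG00000046794, chromosome 8 from 35842893 to 35855293, plus strand), the main PP1 targeting subunit of liver, had larger differences than the 6 members other than Ppp1r3g in each of the 4 comparisons. Fasted control livers held 60.1, 216, 170.4 and 115 CPM, and fasted LKO livers held 20.8, 50.5, 27.4 and 38.0 CPM. The refed control libraries rose to 492, 508, 362 and 246 CPM and the refed LKO libraries to 312, 217, 196 and 179 CPM. All fasted LKO libraries lay below all fasted controls, and the refed libraries of each genotype above the fasted libraries of that genotype, while the refed groups overlapped. In either direction, 16.9% of all genes had fasted genotype groups that did not overlap. For refed against fasted the shares were 20.4% in control and 20.6% in LKO. Refeeding raised Ppp1r3b by 1.52 on the log2 scale in control (SE 0.35, edgeR adjusted p = 0.00871) and by 2.73 in LKO (SE 0.37, adjusted p = 1.4e-04), that is 2.86-fold and 6.62-fold. In fasted LKO it fell by 2.04 (SE 0.36, edgeR adjusted p = 0.00190), to 0.243 of the control level, with means of 140.4 ± 67.7 and 34.2 ± 13.01 CPM (SD, n = 4). These 3 calls held in every fit that left out 1 library, but the fasted one was 0.0543 without both S44 and S46 (−1.66). The refed genotype difference was smaller, −0.83 (SE 0.34), and missed the threshold (edgeR adjusted p = 0.198), whereas the authors' deposited table has an adjusted p of 0.0111. The genotype effects of the 2 states differed by 1.21 (SE 0.49), which did not pass (edgeR adjusted p = 0.216, unadjusted p = 0.0238).

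Ppp1r3c (ENSMUSG00000067279, chromosome 19 from 36709131 to 36714053, minus strand), a further targeting subunit, varied widely within groups and was called in 0 of 5 comparisons. Its level was 17.6, 51.7, 52.6 and 57.2 CPM in fasted control and 22.9, 33.0, 8.86 and 60.2 CPM in fasted LKO. Refed control livers held 69.6, 68.9, 69.0 and 33.1 CPM and refed LKO livers 79.7, 30.9, 29.7 and 24.5 CPM. In fasted control, refed control and refed LKO, 1 library stood far from 3 that lay close together. The genotype differences were −0.52 (SE 0.49) fasted and −0.55 (SE 0.49) refed, with edgeR adjusted p of 0.548 and 0.604, so a change of this size could not be told from the spread.

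Ppp1r3g (ENSMUSG00000050423, chromosome 13 from 36142822 to 36154371, plus strand), a targeting subunit tied to postprandial glycogen synthesis, was scarce in all but a pair of libraries. Fasted control libraries held 21, 35, 8 and 11 counts, or 1.04, 2.04, 0.51 and 0.68 CPM. Of the fasted LKO libraries, S44 held 214 counts (10.7 CPM) and S46 held 546 counts (30.6 CPM), whereas S45 and S47 held 9 and 26 counts (0.51 and 1.62 CPM). Refed control libraries had 3, 0, 17 and 28 counts, and refed LKO libraries had 2, 6, 7 and 5 counts, from 0.10 to 0.43 CPM. S44 and S46 are also the libraries with high Gys2. The fasted genotype difference of 3.33 (SE 0.95, edgeR adjusted p = 0.0308) rested on them: the adjusted p was 0.180 without S46 and 0.0595 without S44, and without both the estimate was −0.03 (adjusted p = 0.994). It was also lost without S40 (0.0779), S42 (0.0858) or S43 (0.0793), with only the 2 groups fitted (0.0774) and with limma-voom (0.309). In LKO liver all refed libraries lay below all fasted ones, and 20.6% of all genes had groups that did not overlap there, in either direction. On refeeding of LKO, Ppp1r3g fell by 5.28 (SE 1.14, edgeR adjusted p = 0.00435). That value was −1.91 without S44 and S46 (adjusted p = 0.243) and −4.01 with limma-voom (0.151). Between states the genotype effect differed by −4.58 (SE 1.67), which did not pass (edgeR adjusted p = 0.180).

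Listed feeding genes were read beside these members, and their part in the results was not tested. Igfbp1, which insulin represses, stood at 107 and 193 CPM in S44 and S46, against 20.2 and 96.7 in S45 and S47 and 23.6 to 39.1 CPM in fasted control. Pdk4, another fasting gene, was high in S44 (34.1 CPM) and highest in S47 (49.97 CPM), so these libraries did not lead in every such gene. Of 5 listed feeding genes, 2 rose and 1 fell in fasted LKO, 0 were called by edgeR in refed LKO, and on refeeding 2 rose in control and 2 rose and 2 fell in LKO. The shares of all genes called in these 4 comparisons were 12.2%, 3.63%, 15.4% and 18.1%. Igfbp1 was not called in fasted LKO without S44 and S46 (edgeR adjusted p = 0.444), which left 1 gene higher and 1 lower there, and its call was also lost without S40, S41, S42, S43, S44 or S46 alone. On the first principal component, which carried 24.1% of the variance, S44 (−49.3) and S46 (−40.3) were the lowest of all libraries, with S47 (−37.7) and S45 (−24.1) next.

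Levels of different genes were compared as CPM per kb of the authors' gene length. In fasted control liver Ugp2 led with 75.5 ± 3.95 CPM per kb (SD, n = 4), followed by Gys2 (54.4 ± 4.30) and Pygl (40.6 ± 4.97), and the libraries of these 3 neighbours did not overlap. Ppp1r3b (22.6 ± 10.9), Ppp1r3c (16.4 ± 6.70) and Gbe1 (15.4 ± 2.04) came next and overlapped with their neighbours in that order. Phka2 (3.66 ± 0.35) and Ppp1r3g (0.40 ± 0.26) closed it, apart from each other and from the rest. In refed control liver Ppp1r3b stood second at 64.6 ± 19.8, overlapping Ugp2 (82.8 ± 7.11) and Gys2 (62.3 ± 7.37). In LKO liver the order had Gys2 first, at 110.3 ± 67.6 fasted and 89.1 ± 15.6 refed, overlapping Ugp2 in both states (63.9 ± 7.57 and 73.1 ± 6.68). The fasted place of Gys2 rested on S44 and S46: in S45 and S47 the mean was 57.8 for Gys2 and 60.9 CPM per kb for Ugp2. Ppp1r3b stood sixth in fasted LKO, at 5.50 ± 2.09 CPM per kb.

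The level of Gys2 over that of Pygl, per kb and within each library, sets synthase against phosphorylase. It was 1.60, 1.46, 1.38 and 1.02 in fasted control and 8.08, 2.30, 9.83 and 1.84 in fasted LKO. In the refed state it was 1.45, 0.995, 1.74 and 1.66 in control and 2.65, 4.22, 2.84 and 3.43 in LKO. The LKO libraries lay above the control libraries in both states, S45 and S47 included. In S45 and S47, Gys2 held 62.8 and 52.7 CPM per kb, against 48.2 to 57.6 in fasted control. Pygl held 27.3 and 28.6 CPM per kb there, against 35.6 to 47.4 in fasted control. How often ratios of other gene pairs separate the groups likewise was not computed. The ratio joins members that were described singly above, so it is given with no test.

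**Figure D3:**
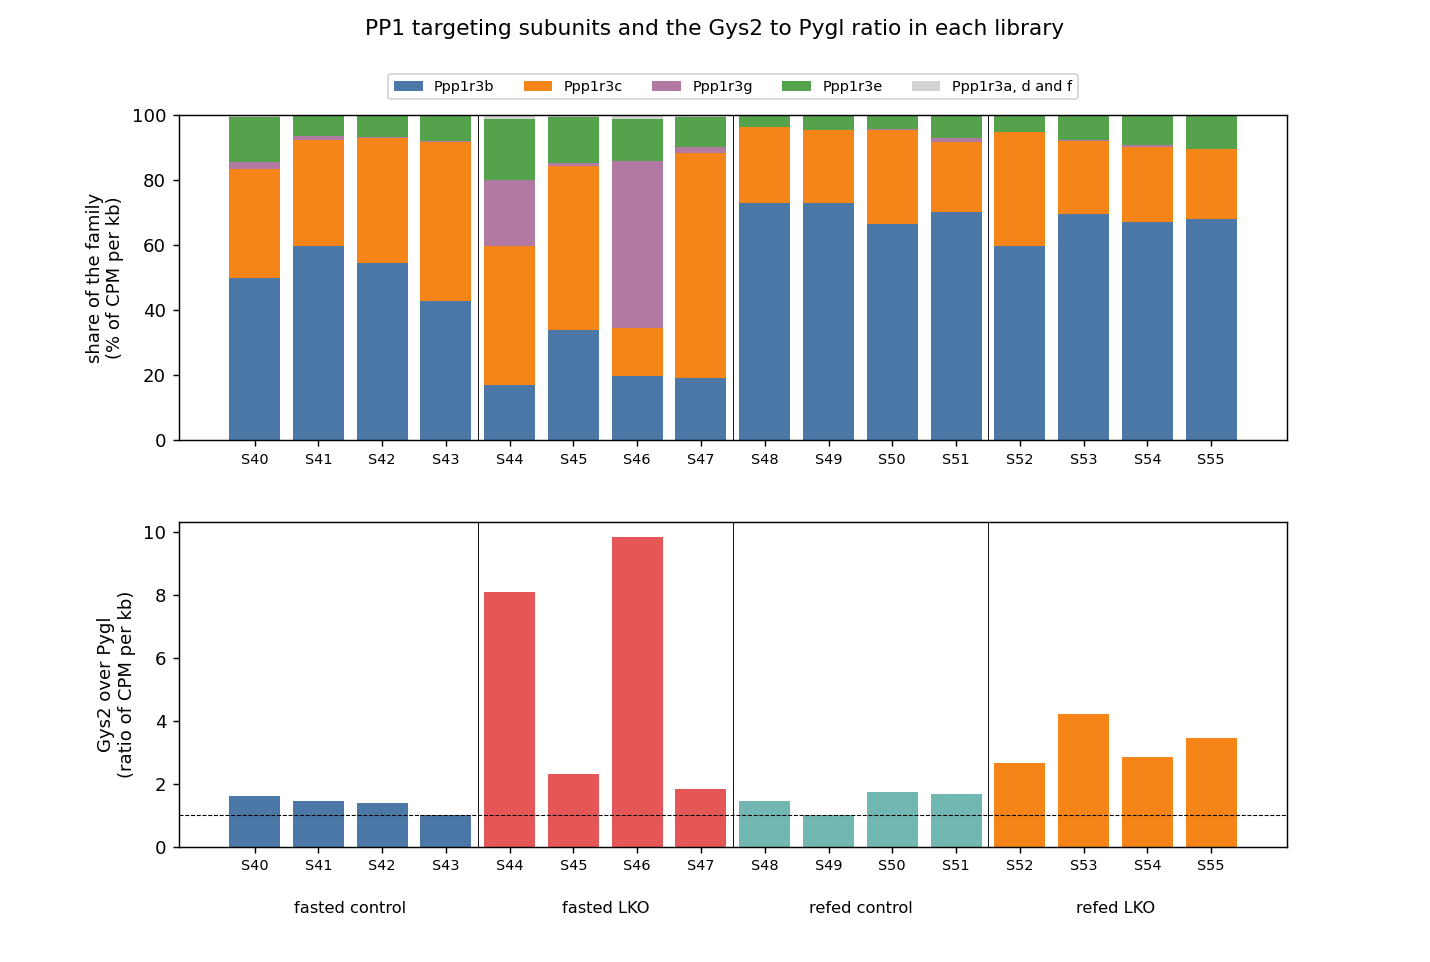
For each of the 16 libraries, the upper panel gives the share of each PP1 targeting subunit gene in the summed CPM per kb of the Ppp1r3 family (%), and the lower panel the ratio of Gys2 to Pygl in CPM per kb, with a dashed line at 1. Ppp1r3b takes 17.1% to 33.9% in fasted LKO and 66.6% to 72.9% in refed control, and Ppp1r3g takes 51.4% in S46.

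Within the Ppp1r3 family, whose 7 listed genes were all in the tables, the make-up differed between the groups. Ppp1r3b held 42.9% to 59.8% of the family's summed CPM per kb in fasted control and 17.1% to 33.9% in fasted LKO. After refeeding it held 66.6% to 72.9% (control) and 59.9% to 69.7% (LKO). Ppp1r3c was the next largest in fasted control and both refed groups, with group means of 38.3%, 24.2% and 25.5%. In fasted LKO Ppp1r3c had the largest group mean, 44.3% against 22.5% for Ppp1r3b. Its share there was 42.9%, 50.6%, 14.7% and 69.2% in S44 to S47. Ppp1r3g held 20.3% in S44 and 51.4% in S46 and at most 2.004% in each of the other 14 libraries. Ppp1r3e, which is not among the 8, ran from 6.70 to 12.3 CPM over all libraries and was called in 0 of 5 comparisons. Ppp1r3a, the subunit of striated muscle, had 0 CPM in every fasted library and at most 0.09 CPM refed, and Ppp1r3d and Ppp1r3f stayed below 0.51 CPM. Summed over the family, fasted control stood at 42.7 ± 16.8 CPM per kb and fasted LKO at 24.4 ± 5.35 (SD, n = 4). The refed sums were 91.1 ± 25.6 (control) and 55.8 ± 19.0 (LKO).

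Of 25 further listed names, 24 were in the tables (Gyg1 is listed there as Gyg) and 20 passed the filter on low counts. In fasted LKO 1 of these 20 rose and 1 fell (12.2% of all genes were called by edgeR), and without S44 and S46 0 of the 20 were called. In refed LKO 0 of 20 were called by edgeR (2 at an unadjusted p under 0.05), against 3.63% of all genes. On refeeding 1 rose and 4 fell in control (15.4% of all genes were called), and 0 rose and 1 fell in LKO (18.1%). Without S44 and S46 those counts were 2 higher and 4 lower in control, and 1 higher and 0 lower in LKO. For the difference between states 0 of 20 were called by edgeR (2 at an unadjusted p under 0.05). Their median log2 fold changes lay between −0.03 and 0.01 in all 5 comparisons.

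The catalytic subunits of PP1 did not move together. Ppp1ca fell in fasted LKO (−0.38, SE 0.10, edgeR adjusted p = 0.0230) and on refeeding of control mice (−0.63, SE 0.10, adjusted p = 0.00137), whereas Ppp1cb rose in fasted LKO (0.24, SE 0.07, adjusted p = 0.0456). Ppp1cc fell on refeeding in both genotypes (−0.31 and −0.34, SE 0.10 each, edgeR adjusted p = 0.0427 and 0.0248). The fasted genotype calls of Ppp1ca and Ppp1cb were lost without S44 (0.0778 and 0.102) or S46 (0.0756 and 0.144). Ppp1ca also lost it without S40 (0.0563) or S42 (0.0647), and Ppp1cb in 13 of 16 fits that left out 1 library in all. Ppp1cc was not called in control when any of 6 of the 8 libraries compared was dropped, with adjusted p up to 0.126 (without S42), nor in LKO without S45 (0.0811), S52 (0.0782), S55 (0.0574) or both S44 and S46 (0.0730).

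On refeeding of control mice, Phkg2, the catalytic subunit of liver phosphorylase kinase, fell by 0.36 (SE 0.11, edgeR adjusted p = 0.0361), and Gaa, the lysosomal glucosidase, by 0.29 (SE 0.10, adjusted p = 0.0484). Pgm2l1 rose by 0.88 (SE 0.29, adjusted p = 0.0489) at a level of 1.42 to 4.18 CPM in the control libraries. These 3 calls lie close to the threshold and were lost in most fits that left out 1 library of the groups compared: 6, 8 and 7 of 8. Pgm1, which interconverts glucose 1-phosphate and glucose 6-phosphate, was among the steadiest genes, at 252 to 310.4 CPM over all libraries, with genotype differences of −0.11 and −0.09 (SE 0.08 each). The other isoforms were scarce: Gys1, the muscle glycogen synthase, stood at 1.79 to 6.00 CPM, Pygb, the brain phosphorylase, at 2.72 to 6.74 CPM, and Pygm, the muscle phosphorylase, at 0.53 to 1.84 CPM.

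**Figure D4:**
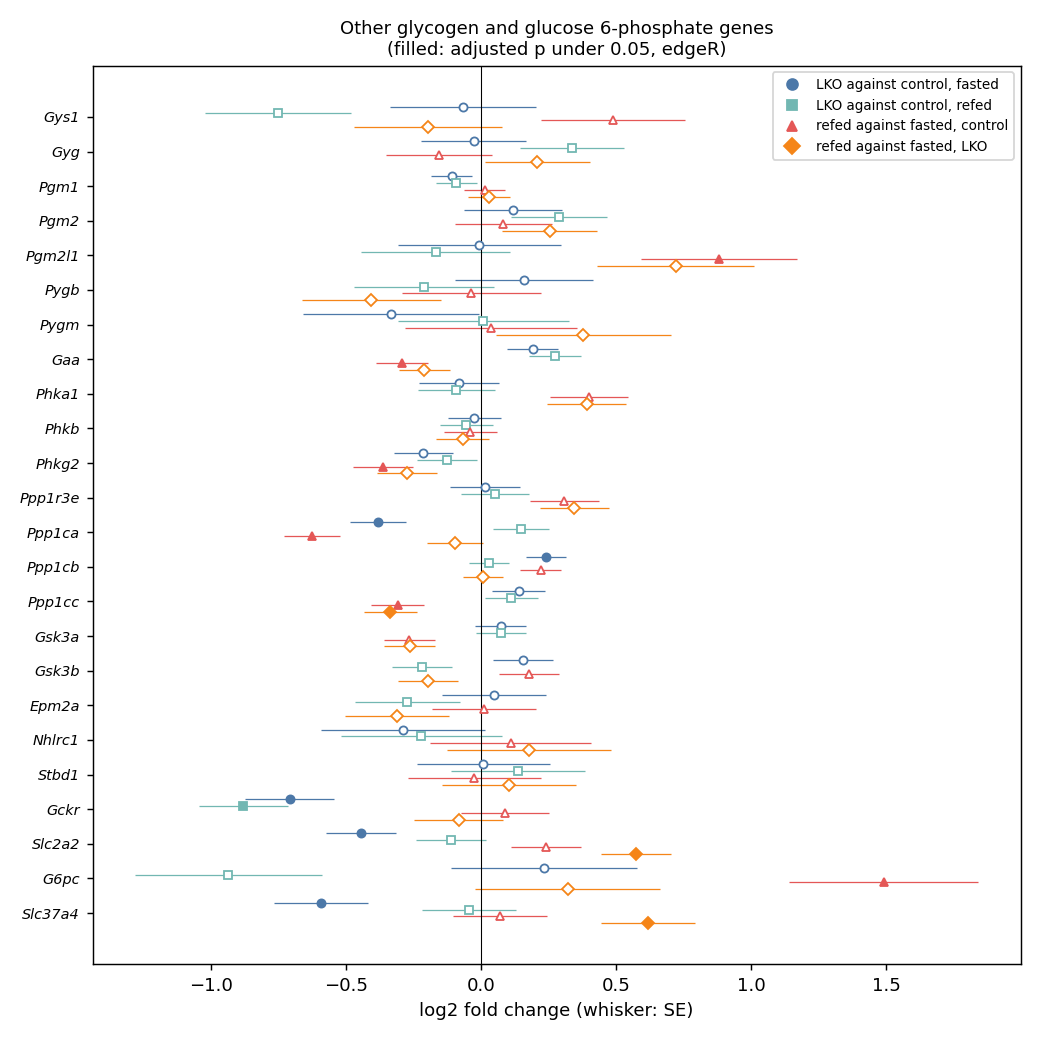
Log2 fold change (horizontal axis, SE as whiskers) of 20 further glycogen genes and 4 genes of glucose 6-phosphate entry and exit (vertical axis) in 4 comparisons, marked by shape and colour, filled for an edgeR adjusted p under 0.05. G6pc lies farthest out, at 1.49 on refeeding of control mice, while most points lie within 0.5 of 0.

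Genes that bring glucose 6-phosphate to the pathway or take it away were read beside it. In fasted LKO 3 of 4 tested genes fell and 0 rose, and without S44 and S46 0 of the 4 were called. In refed LKO 1 fell, and on refeeding 1 rose in control and 2 in LKO. Of all genes, edgeR called 12.2% in fasted LKO, 3.63% in refed LKO, 15.4% on refeeding of control and 18.1% on refeeding of LKO. Gckr was lower in LKO in both states (−0.71 and −0.88, SE 0.16 and 0.17, edgeR adjusted p = 0.0107 and 0.00825), a fasted call lost without both S44 and S46 (0.163). Slc2a2, the glucose transporter GLUT2, and Slc37a4, the glucose 6-phosphate transporter of the endoplasmic reticulum, fell in fasted LKO (−0.45 and −0.59, edgeR adjusted p = 0.0332 and 0.0346) and rose on refeeding of LKO (0.57 and 0.62, adjusted p = 0.00575 and 0.0213). The fasted call of Slc2a2 was lost without S41 (0.0855), S42 (0.0740), S43 (0.0699), S44 (0.0690) or S47 (0.0624). That of Slc37a4 was lost without S40 (0.0564), S41 (0.0881), S42 (0.0926), S44 (0.110) or S47 (0.0787), and its refeeding call without S44 (0.0663), S47 (0.0564), S52 (0.0512), S53 (0.0567) or S55 (0.0522). G6pc, the catalytic subunit of glucose 6-phosphatase, which frees glucose and is known to be repressed by insulin, rose on refeeding of control mice from 165.4 ± 69.0 to 465 ± 94.9 CPM (SD, n = 4; 1.49, SE 0.35, edgeR adjusted p = 0.0102). In LKO liver its refeeding value was 0.32 (SE 0.34), and the difference of the genotype effects, −1.17 (SE 0.49), did not pass (edgeR adjusted p = 0.235).

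For each member, the protein-coding genes most like it in level over the 16 libraries were listed by Pearson's r of log2 CPM, as a description over libraries that share groups, among 8990 genes of at least 5 CPM (8991 for Ppp1r3g). Gys2 was most like Grb14 (0.95), an adaptor of the insulin receptor, Rapgef4 (0.92) and Pnpla7 (0.92). Gbe1 was most like Akr1c20 (0.96), Ghr, the growth hormone receptor (0.96), and Mindy3 (0.96). Among the genes most like Pygl were Khk, the fructokinase (0.95), and Iyd (0.95). Ppp1r3b was most like Slc35b1 (0.97), Magt1 (0.97) and Slc22a30 (0.96). Ppp1r3g was most like Slc25a47 (0.92), Creb3l3, a liver transcription factor of fasting (0.92), and Txnip (0.92). Ppp1r3c was most like Slc30a10 (0.92), Tecpr2 (0.92) and Rdh10 (0.90), Phka2 like Klhdc7a (0.89), Vmac (0.89) and Tmem94 (0.88), and Ugp2 like Pals2 (0.82), Osbpl5 (0.81) and Ulk2 (0.81). Among the members themselves Gbe1 and Ppp1r3b were the closest pair (0.94), and Gys2 and Pygl were the most opposed (−0.79). Every r here includes S44 and S46, where Gys2 and Ppp1r3g were high, and none was computed without them.

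Counting could mix in overlapping genes, since its use of strand is not given in the sources used here. In the deposited coordinates Gys2, Gbe1, Phka2 and Ppp1r3c overlapped 0 other genes. Ugp2, Pygl, Ppp1r3b and Ppp1r3g each overlapped 1 antisense long noncoding RNA, and those held at most 4, 5, 18 and 4 counts in any library. Of the authors' own comparisons, the deposited tables give an adjusted p under 0.05 to 4 of the 8 genes in fasted LKO (1 higher, 3 lower, without Gys2, at 0.136) and to 4 in refed LKO (Gys2 higher, and Gbe1, Pygl and Ppp1r3b lower). On refeeding they give it to 2 members in control, both higher, and to 3 in LKO, 2 higher and 1 lower. The share of all genes that pass in the authors' comparisons was not computed, so these counts have no base rate beside them.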

How the data were processed

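Poly-A RNA of 16 livers was sequenced from libraries built with random hexamers and dUTP, per the labels' protocols. Reads were aligned with HISAT2 2.0.5 to mm39, per the submitters' processing notes, and the counting tool is not given in the sources used here. The authors deposited 4 tables of raw read counts per gene, each of 2 groups. Group means of a normalized signal were deposited too, and 8 of 8 were weighted sums of the counts of the group's own 4 libraries, which checks the grouping. The authors' log2 fold changes (control or fasted in the numerator, so given here with the sign reversed), adjusted p-values and gene lengths were read from the deposited tables. Another 64 per-library columns were left unused. Columns S40 to S55 carry a group and no replicate number.

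Tables were joined on gene identifier. A gene absent from a library's tables was set to 0 there, which touched 3148 genes and 0 members. In R 4.3.3, genes passing filterByExpr (14488) were scaled by TMM (factors 0.941 to 1.07) and fitted with edgeR 4.0.16 (glmQLFit, glmQLFTest), with all 16 libraries in 1 group factor. The biological coefficient of variation was 0.185. SE is the log2 fold change over the square root of F. Log2 CPM used a prior count of 2. The fit was tested on simulated data. Alternatives used limma 3.58.1 (voom), DESeq2 1.42.0, other scalings and filters, and each library left out. Named genes were the members, their listed pathway genes that were called or of the same families, the listed feeding genes, and the 3 genes most like each member. Some listed or most alike genes are not reported here. The members and lists were chosen with earlier results of these data known. Cell type marker lists covered hepatocytes, stellate cells or fibroblasts, endothelial cells, macrophages, cholangiocytes, lymphocytes, red blood cells, adipocytes and skeletal muscle.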

Additional observations from a re-analysis of the deposited data

Results flagged for a closer look

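In 5 of 92 groups of 4 libraries, over 23 genes, 1 library lay so far from the others that its gap to the nearest, over the whole range, passed Dixon's 95% critical value. Chance passes about 1 in 20. For Ppp1r3c these were the lowest fasted control library, S40 (17.6 CPM, gap 0.860 of the range), the lowest refed control library, S51 (33.1 CPM, 0.981), and the highest refed LKO library, S52 (79.7 CPM, 0.885). For Phkg2 it was the highest fasted control library, S42 (16.8 CPM, 0.877), and for Srebf1, a regulator of lipid synthesis, the highest fasted LKO library, S45 (45.9 CPM, 0.838).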

How the results depend on the processing

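Results were recomputed under other scalings, filters and tools, with each library left out, and, chosen after seeing the data, without S44 and S46. No paired analysis was possible because the count columns carry no replicate number. For single genes the alternatives were tallied over 40 results of the 8 members and over 27 results of other named genes that were called, so calls gained by other listed genes are not in the tally: 1423 values kept direction and call, 138 lost the call, 9 gained one and 22 changed sign. Calls among all genes and among the 8 members moved as follows, and the cause was not tested. In fasted LKO, 1772 genes became 391 without S44 and S46 (1048 to 1985 with 1 library left out), and 5 members became 3 with limma-voom, 3 with only the 2 groups fitted and 0 without S44 and S46 (3 to 5). In refed LKO, 526 genes became 904 with DESeq2 (197 to 601), and 1 member became 3 without S44 and S46 (0 to 1). For the difference between states, 78 genes became 469 with DESeq2, 195 among genes of at least 5 CPM and 1 without S44 and S46 (8 to 282), while the members stayed at 0 (0 to 0). On refeeding of LKO, 2616 genes became 1606 without S44 and S46 (1795 to 2730), and 3 members became 2 without them (3 to 3). On refeeding of control, 2238 genes ranged from 1220 to 2483 and the 2 members from 1 to 3.

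Log2 values that changed sign were, without S44 and S46, those of Gys2 (0.63), Ppp1r3c (−0.18) and Pygl (−0.030) on refeeding of LKO, of Ppp1r3c (0.061) and Ppp1r3g (−0.026) in fasted LKO, and of Gbe1 (−0.062), Gys2 (0.43) and Pygl (−0.14) for the difference between states. For Ppp1r3c that difference was 0.038 with limma-voom and −0.57 to 0.50 with 1 library left out. With 1 library left out, refeeding of LKO gave −0.54 to 0.14 for Gys2, −0.20 to 0.0048 for Phka2 and −0.14 to 0.93 for Ppp1r3c, and refed LKO gave −0.024 to 0.12 for Phka2. Depth limits Ppp1r3g, which held 0 to 35 counts outside S44 and S46.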
